A study of Sus scrofa with 6 samples.

Results

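Prostaglandins are lipid signals made from arachidonic acid, and this account follows the genes that make, sense and degrade them in pig kidney cortex after warm and cold ischemia. The members were the probes that the array design names PTGS1, PTGS2, PTGES, PTGIS, PTGER2, PTGER3, PTGER4, PTGFR or HPGD. That rule found 10 of the 43603 probes, for 5 of the 9 genes (5 of the 5221 genes with a symbol): 2 probes for PTGS1, 2 for PTGES, 2 for PTGER3, 3 for PTGFR and 1 for HPGD. A further 6 probes reach PTGS2, PTGIS, PTGER2, PTGER3 and HPGD under other names in the files. They lie outside the rule and are described apart. No probe was matched to PTGER4.

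The study compared 2 groups of Large White pigs aged 3 months, with 3 kidneys from different animals in each. Control kidneys were taken out, then sampled and frozen at once. In the ischemia group the vessels were clamped, the kidney was removed and kept clamped for 60 min at 37 °C, flushed with cold University of Wisconsin preservation solution and held at 4 °C for 24 h before sampling. The labels describe no reperfusion, and the groups differ in warm ischemia, in the flush and in cold storage at the same time, and these cannot be told apart. Total RNA from cortex was labelled with Cy3 and hybridised to 1 array per kidney.

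Cyclooxygenases (PTGS1, constitutive in many cells, and PTGS2, inducible) turn arachidonic acid into the unstable intermediate PGH2. Terminal synthases then make PGE2 (PTGES) or prostacyclin (PTGIS), G protein-coupled receptors read these products (PTGER2, PTGER3 and PTGER4 bind PGE2, PTGFR binds PGF2α), and 15-hydroxyprostaglandin dehydrogenase, HPGD, inactivates them. In the kidney, prostaglandins help to keep up blood flow and to set salt and water transport in the loop and collecting duct.

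Each probe is 60 bases long and reads 1 stretch of a transcript, so the sequences below show what a value of a gene stands for. For the whole length, bases 1 to 60 are printed, and for the others bases 1 to 30, as given by the array design, 5′ to 3′. The first 4 are the member probes whose groups did not overlap and the 2 other PTGFR probes, and the rest stand for the other genes described.
PTGS1 A_72_P063591, bases 1 to 30: actgactttctgattggcgattcagaatgt
PTGFR A_72_P687271, bases 1 to 30: ctgagcataggtttagggctaataatggat
PTGFR A_72_P011151, bases 1 to 30: cgtttctggggaattctattactctaggca
PTGFR A_72_P146291, bases 1 to 30: gggggcacttttgtcagatgtgacttttga
PTGES A_72_P495640, bases 1 to 60: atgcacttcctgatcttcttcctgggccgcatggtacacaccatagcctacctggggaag
PTGER3 A_72_P440186, bases 1 to 60: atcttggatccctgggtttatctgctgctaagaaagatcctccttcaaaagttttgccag
HPGD A_72_P108016, bases 1 to 30: agaaggcttgttggtcatgagaaatccaca
PTGS2 A_72_P302784, bases 1 to 30: ggttgagagtcagtaatagaagggcgtgta
PTGS2 A_72_P443218, bases 1 to 30: gttttggttgagagtcagtaatagaagggc
Of the 3 PTGFR probes, A_72_P687271 and A_72_P011151 start at bases 3731 and 4180 of the same transcript record, and A_72_P146291 at base 1251 of another record. The 2 PTGS2 probes start at bases 3508 and 3503 of 1 record and therefore overlap, so they are close to 2 readings of the same site. No genome position or exon was assigned to a probe.

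Between 52.6% and 61.4% of the spots of an array were well above background, the scanner software's own call, and no spot was saturated. Correlations between arrays were 0.960 to 0.983. Slide 1 held control 1 and ischemia 2, slide 2 held control 2 and ischemia 3, and slide 3 held control 3 and ischemia 1. Every control array lay at position 4 of its slide and every ischemia array at position 3, so array position and group cannot be told apart. Values are log2 signal minus the 75th percentile of the array, differences are ischemia minus control with their SE, and a value of 1 on this scale is a doubling. Each group has n = 3. Of the 10 member probes, 8 were well above background on at least 3 arrays and were tested, and 7 of these were well above background on all 6.

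No member probe passed the test across the array. With limma's moderated test and Benjamini-Hochberg adjustment over 25013 probes, 0 of the 8 probes had an adjusted p under 0.05, as against 0.004% of all probes. At an unadjusted limma p under 0.05, 0 of 8 were higher after ischemia (2.99% of all probes) and 1 of 8 was lower (3.31%). The groups did not overlap for 2 of the 8 probes, 1 with ischemia above control (5.89% of all probes) and 1 with ischemia below (5.01%, and 10.9% in either direction). The probe that was lower at the unadjusted level, also the one with ischemia below control, is for the PGF2α receptor PTGFR. The probe with ischemia above control is for the cyclooxygenase PTGS1, and its limma unadjusted p was 0.143. Taking the brightest tested probe of each of the 5 genes, the median difference was -0.17, beside 0.015 over all 4078 genes with a symbol, and 2 of the 5 differences lay above 0, beside 52.7% of all genes.

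**Figure D1:**
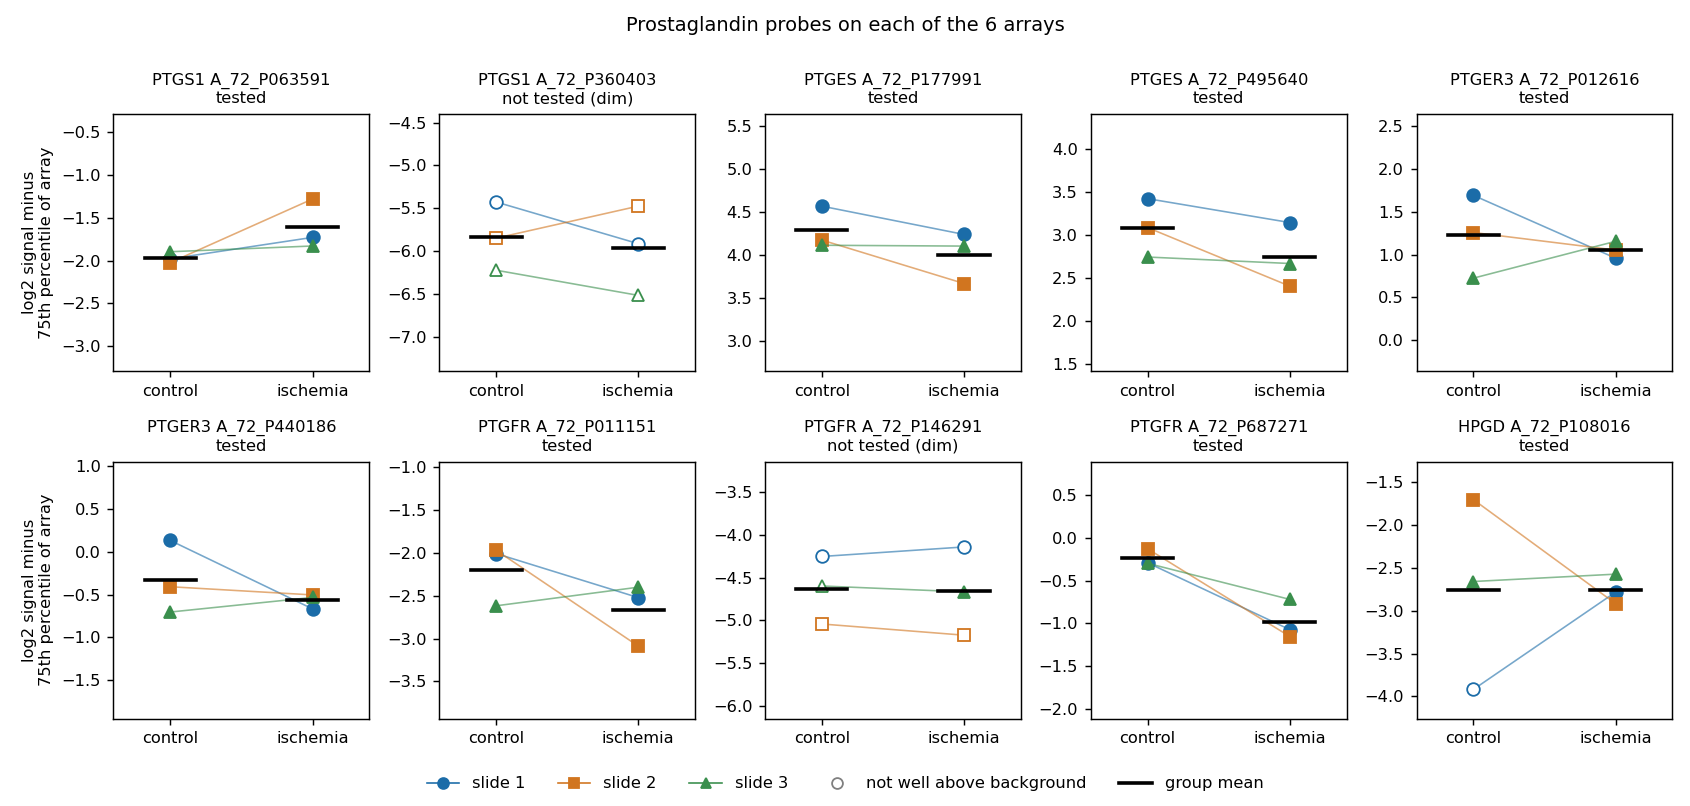
Log2 signal minus the 75th percentile of the array (vertical axis, with the same span in each panel) for the 10 member probes on the 3 control and 3 ischemia arrays, with lines joining the arrays of 1 slide, open symbols where the signal was not well above background and bars at the group means. The groups separate for PTGFR A_72_P687271, from -0.30 to -0.13 in control and from -1.15 to -0.72 in ischemia, and for PTGS1 A_72_P063591, from -2.02 to -1.90 and from -1.83 to -1.28.

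PTGS1 encodes cyclooxygenase 1. Its probe A_72_P063591 read -1.98, -2.02 and -1.90 in control kidneys 1 to 3 and -1.83, -1.73 and -1.28 in ischemia kidneys 1 to 3. All ischemia values lay above all control values, and ischemia 3 stood highest. The difference was 0.35 ± 0.21 (95% interval -0.15 to 0.86), with a limma unadjusted p of 0.143 and an adjusted p of 0.895. Within slides 1, 2 and 3 it was 0.25, 0.74 and 0.067, positive on each but of unequal size. Without ischemia 3 it was 0.19. The other PTGS1 probe, A_72_P360403, was well above background on 0 of 6 arrays, with signals of 3.57 to 6.58, so it gives no second reading of the gene.

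The summed level of leukocyte markers was also higher in every ischemia kidney than in every control. Of the 5 markers listed, 3 were tested (CD14, CD163 and CD3E, without PTPRC and CD68), and their sum, in units of the array's 75th percentile, was 2.26 to 2.66 in control and 3.01 to 6.34 in ischemia. The macrophage scavenger receptor CD163 carried this, at 0.28, 0.37 and 0.47 in control and 2.41, 1.77 and 1.18 in ischemia (difference 1.42 ± 0.32, limma unadjusted p 0.00269, adjusted p 0.496). The brighter probe of the monocyte receptor CD14 differed by -0.42 and its other probe by 0.34, and the T-cell receptor chain CD3E differed by -0.034. Ischemia 3, the highest kidney for PTGS1, was the lowest of the 3 ischemia kidneys for CD163. The sums of vascular markers overlapped between the groups, at 25.9 to 27.5 and 22.7 to 34.6 for the 5 endothelial genes and 68.3 to 86.6 and 78.7 to 106 for the 2 tested of 5 smooth muscle genes. A single gene of each list did not overlap, and in both ischemia 3 was highest, as for PTGS1. The other genes overlapped. PECAM1 differed by 0.092, CDH5 by 0.20, KDR by 0.11 and VWF by -0.031. Ischemia 3 was highest of the 6 arrays for PECAM1 (4.22) and CDH5 (2.31). For VWF it was the highest ischemia kidney (1.94) but lay below control 1 (2.05), and for KDR ischemia 1 was highest. ACTA2, the other tested smooth muscle gene, differed by 0.28. There ischemia 3 (6.24) was the lowest ischemia kidney and lay below control 3 (6.42). The endothelial receptor TEK read 0.74, 0.88 and 0.11 in control and 1.52, 0.95 and 1.60 in ischemia (difference 0.78 ± 0.29, limma unadjusted p 0.0298, adjusted p 0.747). The smooth muscle gene CNN1, calponin, read 0.099, 0.15 and 0.14 in control and 1.30, 0.19 and 1.65 in ischemia (difference 0.92 ± 0.37, limma unadjusted p 0.0413, adjusted p 0.773). The second CNN1 probe differed by 0.44. The part of these cells in the PTGS1 values was not tested, and in bulk cortex more cells of a type and more RNA per cell cannot be told apart.

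PTGS2, the inducible cyclooxygenase that the kidney makes in the macula densa and in interstitial cells, is listed in the files under an older name, outside the rule. Probe A_72_P302784 read -3.86, -3.42 and -2.29 in control and -3.66, -3.35 and -2.41 in ischemia. The groups spanned nearly the same range, and the spread within each group was far wider than the difference of 0.047 ± 0.48 (95% interval -1.07 to 1.17, limma unadjusted p 0.925). The overlapping probe A_72_P443218 differed by 0.23 ± 0.69 and was well above background on 2 of 3 arrays in each group. Its interval reached past 1 log2 unit on both sides, so a difference of that size was not detectable with these arrays. Within slides 1, 2 and 3 the difference of A_72_P302784 was 0.50, 1.01 and -1.37, so the slides did not share a direction.

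PTGES, microsomal prostaglandin E synthase, works downstream of the cyclooxygenases and had 2 probes, both well above background on all 6 arrays. A_72_P177991 read 4.57, 4.17 and 4.11 in control and 4.10, 4.24 and 3.67 in ischemia. A_72_P495640, whose sequence is printed above, read 3.43, 3.09 and 2.74 in control and 2.67, 3.15 and 2.41 in ischemia. On both probes ischemia 3 was lowest and control 1 highest, and the groups overlapped. The differences were -0.28 ± 0.24 and -0.35 ± 0.28 (limma unadjusted p 0.276 and 0.252, adjusted p 0.930 and 0.923). Across the 6 arrays the 2 probes ran together, with a Pearson correlation of 0.931 given as a description of 6 arrays. Within the slides, all differences of both probes were below 0, from -0.51 to -0.0096 for the first and from -0.68 to -0.075 for the second.

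PTGIS, prostacyclin synthase, is reached by 1 probe that the files name only by a transcript identifier and a description, outside the rule. A_72_P082476 read -3.49, -3.50 and -2.94 in control and -5.24, -3.74 and -3.72 in ischemia. All ischemia values lay below all control values, but only 1 ischemia array had a signal well above background, against 3 control arrays, so the 2 other ischemia values are bounded by background. The difference was -0.93 ± 0.43 (limma unadjusted p 0.0691, adjusted p 0.849). In the authors' deposited value table the same probe differed by -0.10, a far smaller value.

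The receptors came next. PTGER3 encodes the EP3 receptor, which lowers cyclic AMP and is known from the thick ascending limb and collecting duct. Probe A_72_P012616 read 1.69, 1.26 and 0.73 in control and 1.16, 0.96 and 1.05 in ischemia. Probe A_72_P440186 read 0.13, -0.41 and -0.70 in control and -0.53, -0.67 and -0.50 in ischemia. On both, the 3 control kidneys spread widely and the ischemia kidneys lay close together inside that range, with SDs of 0.48 and 0.098 for the first probe and 0.42 and 0.087 for the second. The difference in spread was not tested. The differences between groups were -0.17 ± 0.27 and -0.24 ± 0.25 (limma unadjusted p 0.554 and 0.372). The first changed sign without control 1 (0.064) and in the deposited table (0.063). The 2 probes followed each other over the 6 arrays with a Pearson correlation of 0.957.

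One more PTGER3 probe, matched by description and outside the rule, is given apart. A_72_P240487 read -2.18, -2.46 and -2.48 in control and -3.04, -2.81 and -2.58 in ischemia, with every ischemia value below every control value. Its difference was -0.44 ± 0.21 (limma unadjusted p 0.0753, adjusted p 0.850), and it was -0.082 after normexp with quantile normalization and -0.078 in the deposited table. Markers of the segments where EP3 is known overlapped between the groups: the 2 tested thick ascending limb genes of 5 summed to 8.69 to 10.7 in control and 8.09 to 11.6 in ischemia, and the 4 tested distal and collecting duct genes of 5 to 31.3 to 47.6 and 28.0 to 59.4. The PTGER2 probe (EP2, which raises cyclic AMP) was dim on all 6 arrays, at or near background, and is not compared.

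PTGFR encodes the PGF2α receptor, FP, which signals through calcium. Probe A_72_P687271 read -0.29, -0.13 and -0.30 in control and -0.72, -1.07 and -1.15 in ischemia. The controls lay close together (SD 0.096), and every ischemia kidney was lower than every control. For ischemia 1 this depends on the scaling. That array was the brightest, with a 75th percentile of 417 beside 246 to 293 on the others. Its unscaled signal of 253 lay above those of the controls (209, 245 and 217). The difference was -0.74 ± 0.20 (95% interval -1.22 to -0.27), 1.67-fold lower, with a limma unadjusted p of 0.00762. It ranked 312 of 25013 probes by p, and its adjusted p was 0.610. Within slides 1, 2 and 3 the difference was -0.78, -1.02 and -0.42, and with the slide as a block the limma unadjusted p was 0.0139 and the adjusted p 0.403. The deposited table gave a smaller difference for the same probe, -0.26 with a limma unadjusted p of 0.112.

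The other PTGFR probes gave less. A_72_P011151 read -2.01, -1.97 and -2.62 in control and -2.40, -2.52 and -3.09 in ischemia, so that control 3 lay below 2 of the ischemia kidneys. Its difference was -0.47 ± 0.28 (limma unadjusted p 0.135, adjusted p 0.894), and within slides 1, 2 and 3 it was -0.51, -1.12 and 0.22. Without control 3 it was -0.68, with a limma unadjusted p of 0.0444. Over the 6 arrays this probe and A_72_P687271 had a Pearson correlation of 0.764, below those of the probe pairs of PTGES and PTGER3. A_72_P146291, designed to another transcript record, was dim: 1 ischemia array and 0 control arrays had a signal well above background, and it was not tested. With the mean of the 2 tested probes in place of the brightest, the gene differed by -0.61 ± 0.23 (limma unadjusted p 0.0321, adjusted p 0.751).

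HPGD, which oxidises and so inactivates prostaglandins, had the widest control spread of the 8 tested member probes (SD 1.11). Probe A_72_P108016 read -3.92, -1.70 and -2.66 in control and -2.57, -2.78 and -2.92 in ischemia. The control kidneys span the whole range, from the lowest value (control 1, not well above background) to the highest (control 2), and the ischemia kidneys lie between them. The difference was 0.0026 ± 0.51 (95% interval -1.20 to 1.21, limma unadjusted p 0.996), and within slides 1, 2 and 3 it was 1.14, -1.21 and 0.086. It was -0.58 without control 1 and 0.53 without control 2, so its sign rests on single control kidneys. A second HPGD probe, A_72_P187061, found by description, was likewise too dim to compare.

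**Figure D2:**
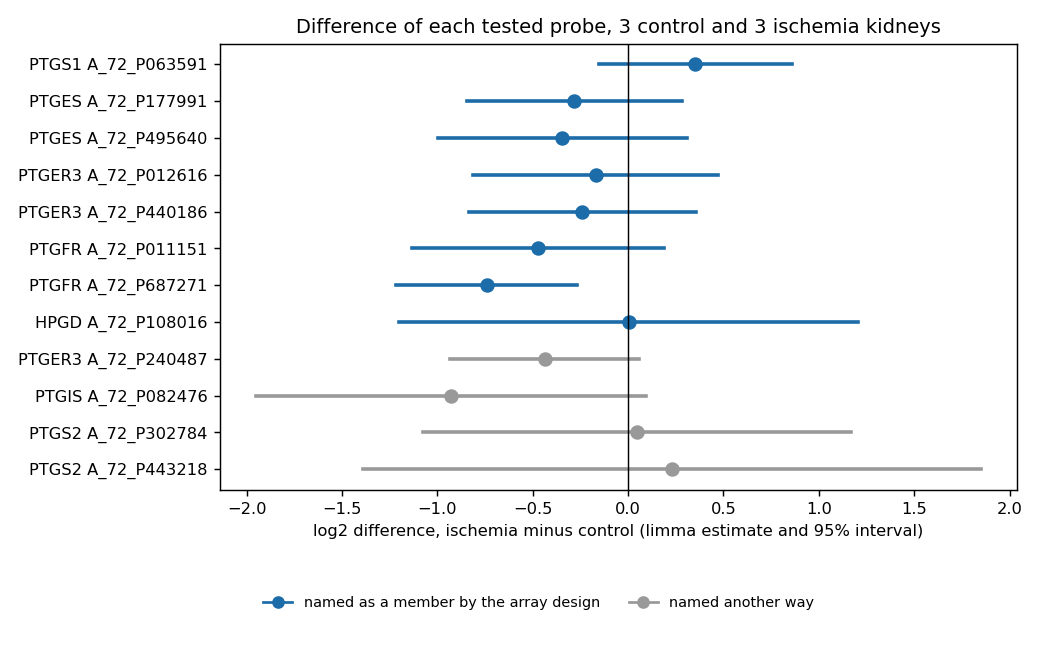
Log2 difference, ischemia minus control (horizontal axis), with its 95% limma interval for the 8 tested member probes (blue) and the 4 tested probes of member genes under other names (grey). The interval lies wholly below 0 for PTGFR A_72_P687271 (-1.22 to -0.27) and spans 0 for the others, and it is widest for PTGS2 A_72_P443218 (-1.39 to 1.85).

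The scaling shifted the level of the differences. The median difference over all genes was 0.015 in the main values, 0.16 after centring each array on its median and 0.21 in the deposited table. The member genes' median was -0.17, -0.020 and, over the 4 member genes in the deposited table, 0.075. Quantile normalization, without and with normexp background correction, gave 0.043 and 0.032 over all genes and -0.18 and -0.18 over the members, so there the 2 medians did not shift the same way. The members' median lay below that of all genes under each of these scalings. Except in the deposited table, that median is the value of 1 probe, PTGER3 A_72_P012616, the middle of the 5 genes. Between replicates the members' median had an SD of 0.13. These medians therefore do not show a shift shared by the member genes. At an unadjusted limma p under 0.05 the main values gave 152 genes above and 119 below control, and median centring 178 and 53. The deposited values gave 696 and 36, from a fit of 19241 probes in place of 25013. Under these and the other alternatives, PTGFR A_72_P687271 differed by -0.87 to -0.26, below 0 in 16 of 16, with a limma unadjusted p under 0.05 in 14. PTGS1 A_72_P063591 differed by 0.19 to 0.50, above 0 in 16 of 16, with a limma unadjusted p under 0.05 in 1, the deposited table (0.47, p 0.0178, adjusted p 0.292).

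**Figure D3:**
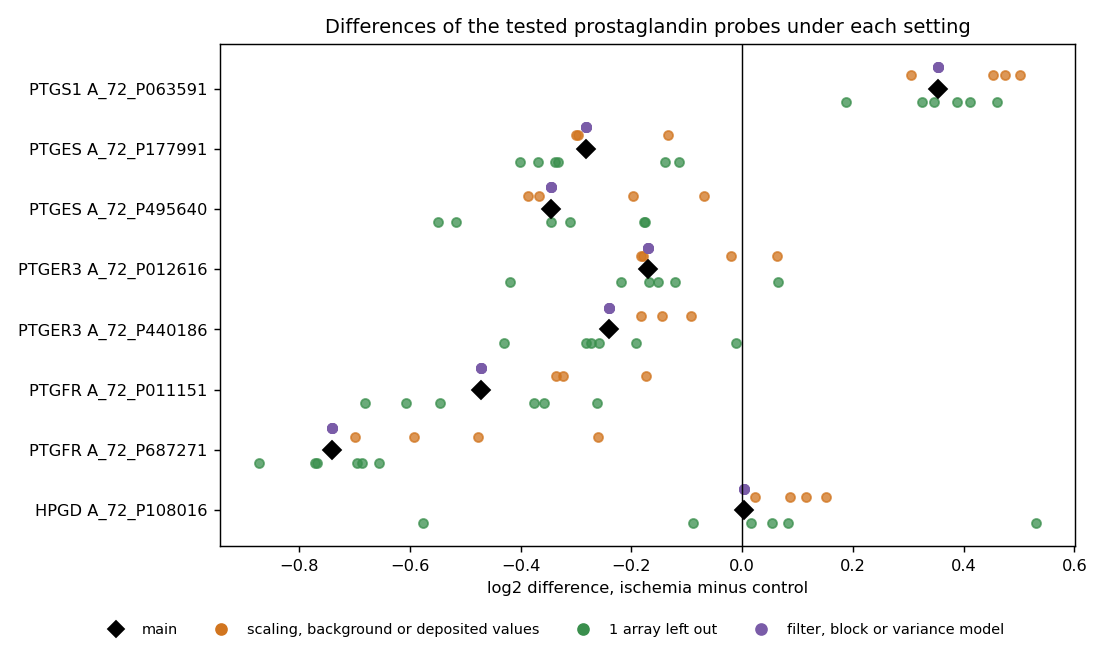
Log2 difference, ischemia minus control (horizontal axis), for each tested member probe under the main processing (black) and under each alternative: other scaling, background or the deposited values (orange), 1 array left out (green), and another filter, block or variance model (purple). PTGFR A_72_P687271 stayed between -0.87 and -0.26 and PTGS1 A_72_P063591 between 0.19 and 0.50, whereas HPGD ran from -0.58 to 0.53.

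Other genes of the pathway were read from lists. For comparison, an unadjusted limma p under 0.05 was reached upward by 3.73% and downward by 2.92% of the 4078 genes, and 0% passed the adjusted test, so the counts in the lists are given at the unadjusted level. Upstream, 1 of 10 phospholipases A2, the enzymes that release arachidonic acid, was tested: PLA2G6, which also has 1 further probe at 0.34, differed by 0.063. Of 10 other synthases, 6 were tested, with 0 higher, 2 lower and a median of -0.15. TBXAS1, thromboxane synthase, read 2.16, 1.80 and 1.74 in control and 1.13, 1.02 and 1.54 in ischemia, a difference of -0.67 ± 0.23 (limma unadjusted p 0.0216, adjusted p 0.723) that its second probe shared (-0.78). CBR1, a carbonyl reductase that can turn PGE2 into PGF2α, read 5.87, 5.78 and 4.82 in control and 4.69, 4.72 and 4.68 in ischemia, a difference of -0.79 ± 0.30 (limma unadjusted p 0.0343, adjusted p 0.751). For both genes the groups did not overlap, although control 3 came close to the ischemia kidneys for CBR1. The unadjusted call was kept in 10 of 15 alternatives for TBXAS1 and in 10 of 16 for CBR1. With 1 array left out the list had 0 to 2 lower genes, with 0 without control 1, ischemia 1 or ischemia 2 and 1 without control 2 or ischemia 3, and after median centring it had 0. The cytosolic PGE synthase PTGES3 differed by 0.38 (its 3 probes spanned 0.010 to 0.38), the prostaglandin D synthase PTGDS by -0.30, the PGF synthase AKR1B1 by 0.15 and PTGES2 by 0.0063.

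Transport, breakdown and signalling gave 1 gene each below the unadjusted level. Of 7 transport and breakdown genes, 4 were tested, with 0 higher, 1 lower and a median of 0.00065. SLCO2A1, the prostaglandin uptake carrier that brings its substrates to HPGD, read -1.78, -2.34 and -1.71 in control and -2.16, -2.93 and -2.85 in ischemia, so the groups overlapped. Its difference was -0.70 ± 0.29 (limma unadjusted p 0.0455, adjusted p 0.778), it was -0.11 in the deposited table, and the unadjusted call was kept in 6 of 16 alternatives. That call was lost without control 1, control 3, ischemia 2 or ischemia 3. The carrier SLCO3A1 differed by 0.063 and the prostaglandin reductases PTGR1 and PTGR2 by -0.062 and 0.085. Of 15 genes of receptor signalling to cyclic AMP, 8 were tested, with 0 higher, 1 lower and a median of -0.036. The phosphodiesterase PDE4B, which degrades cyclic AMP, differed by -0.92 ± 0.39 (limma unadjusted p 0.0497, adjusted p 0.792), with control 1 at -1.14 among the ischemia values of -1.29 to -1.04. Without control 1 it was -1.37, and the unadjusted call was kept in 8 of 15 alternatives, lost when any other array was left out. The kinase subunit PRKACA differed by 0.30, the cyclase ADCY4 by -0.30 (its 3 probes spanned -0.31 to 0.66) and the transcription factor CREB1 by -0.14 (0.012 after median centring). Of 5 other prostanoid receptors none had a tested probe, and 2, PTGDR and PTGDR2, had a probe that was too dim.

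The sister branches of arachidonic acid metabolism were read in the same way. Of 9 lipoxygenase and leukotriene genes, 4 were tested, with 0 higher and 0 lower: ALOX5AP differed by -0.30, ALOX12 by -0.44, CYSLTR1 by -0.24 and CYSLTR2 by -0.026. All 4 lay below 0 in the main values, whereas all 3 of them found in the deposited table lay above 0. Of 10 genes for epoxygenases, hydroxylases and epoxide hydrolases, 8 were tested, with 2 higher, 0 lower and a median of -0.44. The 2 were CYP4A21 and CYP4A24, which are close paralogs, so their probes may read each other's transcript. Whether CYP4A21 acts on arachidonic acid was not tested. CYP4A21 read 6.56, 8.79 and 5.46 in control and 9.26, 9.41 and 9.11 in ischemia (difference 2.32 ± 0.75, limma unadjusted p 0.0170, adjusted p 0.683), and CYP4A24 differed by 2.37 ± 0.79 (limma unadjusted p 0.0189, adjusted p 0.703). Control 2 lay near the ischemia kidneys and the other controls well below. Without control 3 the differences were 1.59 and 1.63, and without control 2 they were 3.25 and 3.37. CYP4A21 kept its unadjusted call in 16 of 16 alternatives, and CYP4A24 lost it without control 3, ischemia 1 or ischemia 2. CYP2C42 read 1.29, 0.78 and 0.97 in control, -6.27 and -5.79 in ischemia 1 and 2 and 1.84 in ischemia 3, the only ischemia array where it was well above background (difference -4.42 ± 1.97, limma unadjusted p 0.0583, adjusted p 0.821). The values of ischemia 1 and 2 are bounded by background, and the difference rests on them, as ischemia 3 lay above every control. Without ischemia 3 the difference was -7.04, with a limma adjusted p of 0.00629. That fit sets control signals against background readings only, so its size and p are not a measured change. It was -2.99 without ischemia 1, -3.23 without ischemia 2 and -1.92 after normexp with quantile normalization. The slide block brought 2 genes of the list to the unadjusted level downward, where the main fit had 0: CYP2C42 (limma unadjusted p 0.0312, adjusted p 0.491) and CYP2C49, at -0.59, with a limma unadjusted p of 0.0349 in place of 0.323 (adjusted p 0.497). CYP2C42 also reached that level after median centring (limma unadjusted p 0.0166), with the replicate block (0.0456) and with the variance trend (0.0457). CYP2C33 differed by -0.41, EPHX1 by -0.70, EPHX2 by -0.47 and CYP4F2 by -0.18. The proximal tubule marker SLC34A1, the 1 tested of 5, differed by -0.64 ± 0.27 (limma unadjusted p 0.0479, adjusted p 0.784; under 0.05 unadjusted in 7 of 16 alternatives) and its second probe by 0.35.

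Of 12 regulators of PTGS2, 6 were tested, with 1 higher, 0 lower and a median of 0.0069. CEBPD, a transcription factor of the acute phase response, read 3.68, 3.04 and 3.42 in control and 3.78, 4.72 and 4.52 in ischemia, without overlap and with ischemia 1 close to control 1. Its difference was 0.96 ± 0.31 (limma unadjusted p 0.0159, adjusted p 0.679), and the unadjusted call was lost without control 2, ischemia 2 or ischemia 3. ANXA1, an annexin that restrains phospholipase A2, differed by 0.40 ± 0.19 (limma unadjusted p 0.0719, adjusted p 0.850). The NF-kB subunits NFKB1 and RELA each differed by -0.14, NFATC1 by 0.011 and the glucocorticoid receptor NR3C1 by 0.0032. NFKB1 and RELA were above 0 after median centring (0.0085 and 0.0063) and in the deposited table (0.092 and 0.11).

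**Figure D4:**
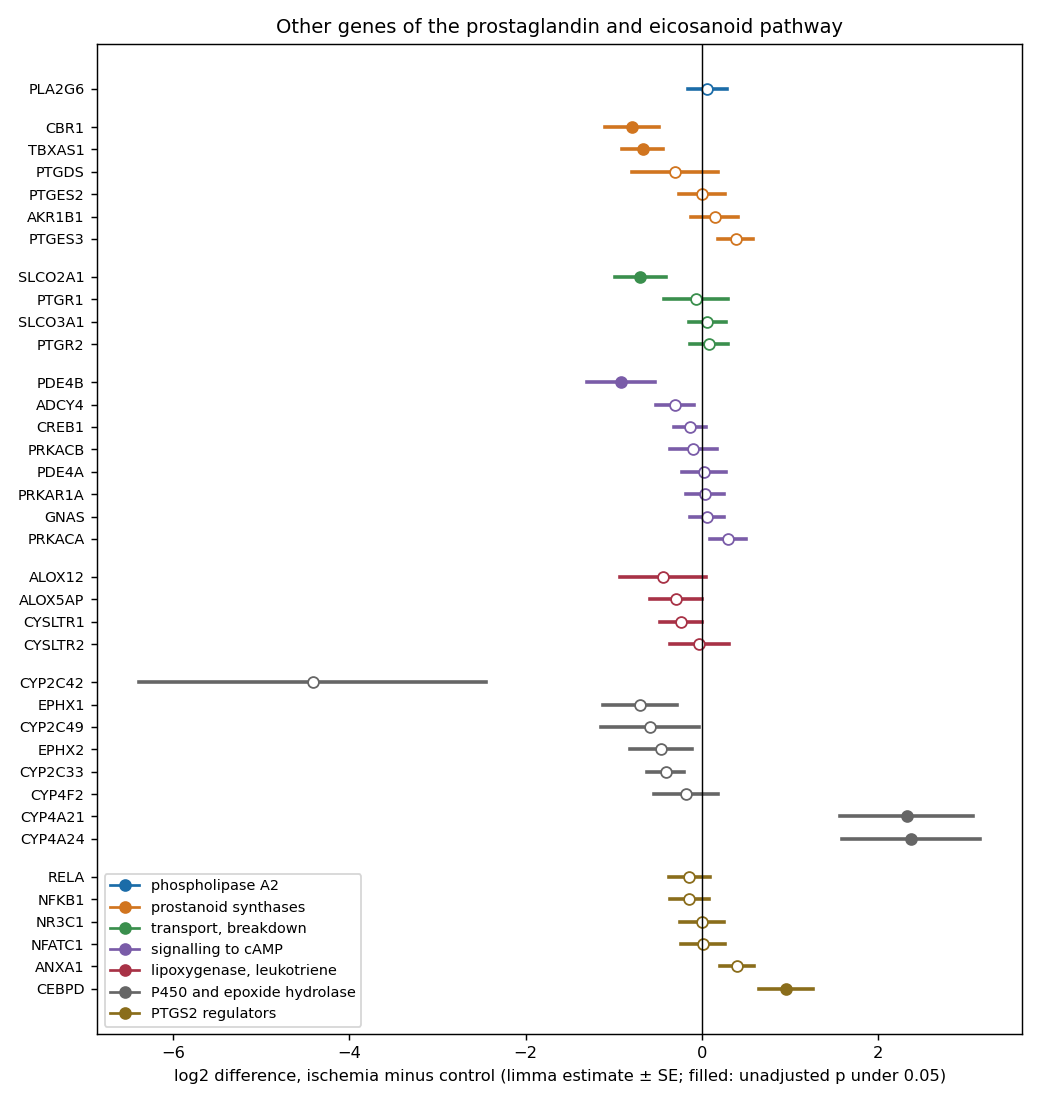
Log2 difference, ischemia minus control (horizontal axis), with ± 1 SE for the tested genes of the 7 pathway lists, coloured by list and filled where the unadjusted limma p was under 0.05. Filled points lie above 0 for CYP4A21, CYP4A24 and CEBPD and below 0 for CBR1, TBXAS1, SLCO2A1 and PDE4B, and CYP2C42 has the widest error (SE 1.97).

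For 3 of the genes the most similar profiles over the 6 arrays were sought among 4077 other genes. For PTGS1 these were CTSS (r = 0.980), GOLGA4 (0.975) and KLF4 (0.974), for PTGS2 MEDAG (0.973), VEGFA (0.970) and IL10 (0.954), and for HPGD ACRV1 (0.992), BPIFB2 (0.967) and RANBP17 (0.961). These are the highest Pearson correlations found, over only 6 points that share arrays, slides and groups, so they are listed as a description and carry no test.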

How the data were processed

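Per the file headers, the deposited scanner files hold spot intensity, background-subtracted and spatially detrended within each array by Agilent Feature Extraction. Version 10.10.1.1 stands in the headers, and 11.5.1.1 in the submitters' processing notes, which also list limma and R 2.15.2. A value table deposited by the authors holds log2 values, 36796 per array, with column medians of 5.91 to 5.99. Its values followed the log2 median signal (Spearman 0.992 to 0.993), but the sources used here do not say how arrays were normalized to each other, and it served as an alternative.

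Here log2 processed intensity minus each array's 75th percentile was fitted in R 4.3.3 with the lmFit and eBayes functions of limma 3.58.1 (two-sided, Benjamini-Hochberg over all probes tested), without control and outlier spots. Probes needed a signal well above background on at least 3 arrays and a value on at least 5. The fit was tested on simulated data. An exact permutation test of 3 against 3 has 0.1 as its smallest p and was not used, and 6 arrays limit the precision. Symbols came from the array design, updated through gene tables, for 11965 of 43603 probes; 31638 had none. A gene is represented by its brightest tested probe.

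The text names every member probe, markers beside a result, and the 3 most similar genes for PTGS1, PTGS2 and HPGD. Of the list genes it names all tested, or the 4 of smallest p where over 6 were tested. In the epoxygenase, hydroxylase and epoxide hydrolase list every tested gene is named, because CYP2C49 is described for its call with the slide block. Probes of members under other names were found through synonyms, gene numbers and descriptions. The members and lists were chosen with earlier results of these data known. Alternatives were median centring, quantile normalization, normexp (offset 50) with quantile normalization, the deposited table, other filters, slide or replicate number as a block, a variance trend, and leaving out each array.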

Additional observations from a re-analysis of the deposited data

Results flagged for a closer look

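The PTGFR probe A_72_P146291, which was not tested, had a signal well above background on 1 ischemia array and on no control array. That signal was 16.4, in ischemia 1. The other ischemia arrays read 13.9 and 8.12, and the control arrays 13.4, 8.12 and 11.0. Relative to the array's 75th percentile the group means were close, -4.63 in control and -4.66 in ischemia. Ischemia 1 was also the array with the highest share of spots well above background, 61.4%. Control 3 had nearly the same share, 61.2%, and there this probe was not well above background.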

How the results depend on the processing

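No member probe passed an adjusted limma p of 0.05 in any of the 16 alternatives. The deposited table holds 5 of the 8 tested member probes, and its counts are over these 5. The count higher at an unadjusted p, 0 in the main values, was 1 in the deposited table (PTGS1). The count lower, 1 (PTGFR A_72_P687271), was 0 after median centring, where this probe differed by -0.59, and 0 in the deposited table; with 1 array left out it ran from 1 to 2, with 2 without control 3. The 2 probes whose groups did not overlap became 1 after median centring (PTGFR), 1 after normexp with quantile normalization (PTGFR) and 1 in the deposited table (PTGS1), and they became 3 after quantile normalization alone, where PTGES A_72_P177991 separated too. With 1 array left out this count ran from 2 to 5, with 5 without control 3 and 4 without ischemia 2, settings that compare fewer arrays. The median over member genes, -0.17, was -0.020 after median centring and 0.075 in the deposited table, and ran from -0.37 (without control 3) to -0.11 with 1 array left out. Signs turned for PTGER3 A_72_P012616 in the deposited table (0.063) and without control 1 (0.064; range with 1 array left out -0.42 to 0.064), and for HPGD A_72_P108016 without control 1 (-0.58) and without ischemia 1 (-0.090; range with 1 array left out -0.58 to 0.53).

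Arrays with the same replicate number had correlations of -0.35, -0.17 and -0.050 between their deviations from the group means. Such deviations cancel within a group, so positive same-slide pairs push other pairs below 0. These values therefore cannot decide whether the numbers pair the kidneys. With the replicate block the counts stayed at 0, 0 and 1 for adjusted, higher and lower, at 2 without overlap and at a median of -0.17; over all genes 107 were higher and 96 lower, against 152 and 119. Arrays of the same slide had correlations of 0.34, 0.10 and 0.33, and the slide block left the member counts as they were. HPGD, PTGS2 and PTGIS lay near background on some arrays, which limits what their values show.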
